A study of Homo sapiens with 32 samples.

Results

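This account sets the 2 MeRIP peak lists labelled OVCAR8 shControl against the 2 labelled SKOV3 shMETTL3, which are 4 of the 32 libraries of the series and 4 of the 12 peak lists analysed. OVCAR8 and SKOV3 are established ovarian cancer cell lines. The OVCAR8 control libraries carry the genotype label WT, and the SKOV3-labelled libraries carry the label of METTL3 knockdown. The labels thus differ in both the cell line and the condition, and differences between these groups due to one cannot be told apart from those due to the other. The libraries are of chromatin-associated RNA fragments pulled down with an antibody against N6-methyladenosine (m6A), so a peak marks a stretch of RNA enriched by that antibody. The labels do not state the age of a culture, the number of hairpins or clones, or whether replicates came from separate cultures, and the spread between 2 lists may be technical. Input libraries were not analysed here, so methylation of a transcript and the amount of that transcript cannot be told apart, nor can fewer cells of a kind and less RNA per cell.

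N6-methyladenosine is the most abundant internal modification of messenger RNA. It is written during transcription by a complex of METTL3, the catalytic subunit, with METTL14 and accessory proteins such as WTAP, VIRMA, ZC3H13 and RBM15. In mature messenger RNA it is known to gather near stop codons and in long internal exons, and on chromatin-associated RNA it also marks introns, long non-coding RNA and repeats such as LINE-1. Reader proteins such as YTHDC1 bind it in the nucleus.

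The members are regions, that is, same-strand peaks merged and present in both replicates of a group on chromosomes 1 to 22 and X. There were 24666 OVCAR8 control regions and 22438 regions in the libraries labelled SKOV3 knockdown. An OVCAR8 control region was called lost where neither SKOV3-labelled knockdown list had a peak over it by at least 1 bp, and this held for 3596 regions, 14.6% of them. In the other direction, 1977 of the regions of the libraries labelled SKOV3 knockdown, 8.81%, had no OVCAR8 control peak and were called gained. These shares depend on the settings: the share gained was 14.3% without the first SKOV3-labelled knockdown list, and where absence from 1 list sufficed 23.9% were lost and 15.9% gained, and with regions of any list 22.5% and 17.4%. The remaining 21070 and 20461 regions were kept. Kept regions were mostly covered throughout, over 97.4% of the width in the median, and 8 kept control regions were covered over less than 10% of it.

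The labels were checked before the results. METTL3 itself, on chromosome 14 from 21498138 to 21511340 (hg38), held 0 and 1 peaks in OVCAR8 control against 0 and 0 in the SKOV3-labelled knockdown, which is too few to check a knockdown. The line labels went against the peaks. Of the OVCAR8 control regions, 57.8% had no peak in the libraries labelled OVCAR8 knockdown and 45.8% had none in SKOV3 control, against the 14.6% lost in the libraries labelled SKOV3 knockdown. The libraries labelled OVCAR8 knockdown, in turn, had 1.94% of their 13463 regions missing from SKOV3 control and 25.9% missing from OVCAR8 control. Their lists were smaller, with 15484 and 15744 peaks against 26178 and 26865 in those labelled SKOV3 knockdown, so the 57.8% is in part set by list size. The control lists were closer in size, with 28918 and 29102 peaks in SKOV3 control and 28237 and 28774 in OVCAR8 control. PAX8, a transcription factor of the Mullerian tract, had 6 and 6 control peaks and 5 and 4 in the SKOV3-labelled knockdown lists, and 2 and 2 in SKOV3 control. MUC16, which encodes the CA-125 antigen, had 5 and 5 against 5 and 6, while in SKOV3 control it had 0 and 0. MECOM had 14 and 14 control peaks and 7 and 7 in the SKOV3-labelled knockdown lists, and 0 and 0 in SKOV3 control. The other 9 of the 12 Mullerian and ovarian markers, WT1, ESR1 and PGR among them, had none in these lists.

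The regions at gene starts show the sequences on which lists differed. Windows with strong lost and gained peaks are therefore printed here from the RefSeq promoter table (GRCh38.p14). Each runs from 250 bases before to 50 after a gene start, read on the sense strand, which reads as the gene's RNA. The choice did not cover every window, and needed at least 30 bases under the region. Stronger peaks may thus lie over windows not printed. Capitals mark the bases under the region. The first pair was lost. The SEC16A window (chr9:136482991-136483290, minus strand) lay under peaks of 10.1 and 10.1 fold enrichment in the control lists, and the TM4SF1 window (chr3:149377600-149377899, minus strand) under peaks of 9.77 and 8.42 fold. SEC16A builds exit sites of the endoplasmic reticulum, and TM4SF1 is a membrane protein of the tetraspanin-like family.
SEC16A: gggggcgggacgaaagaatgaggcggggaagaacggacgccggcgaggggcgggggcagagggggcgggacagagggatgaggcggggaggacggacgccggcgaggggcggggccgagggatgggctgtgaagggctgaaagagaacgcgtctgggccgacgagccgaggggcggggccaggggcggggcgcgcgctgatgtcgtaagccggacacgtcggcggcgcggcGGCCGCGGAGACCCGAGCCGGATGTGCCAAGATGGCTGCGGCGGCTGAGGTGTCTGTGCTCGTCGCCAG
TM4SF1: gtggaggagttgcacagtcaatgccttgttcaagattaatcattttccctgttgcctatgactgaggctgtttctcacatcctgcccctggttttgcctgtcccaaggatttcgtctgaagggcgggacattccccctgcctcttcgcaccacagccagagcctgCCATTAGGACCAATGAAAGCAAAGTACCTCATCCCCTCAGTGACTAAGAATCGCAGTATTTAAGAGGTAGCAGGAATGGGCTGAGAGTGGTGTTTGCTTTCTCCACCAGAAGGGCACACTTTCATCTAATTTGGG

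The second pair was gained. The JARID2 window (chr6:15245819-15246118, plus strand) lay under peaks of 6.21 and 6.66 fold in the SKOV3-labelled knockdown lists, and the BCAR3 window (chr1:93681788-93682087, minus strand) under peaks of 6.16 and 7.07 fold. JARID2 is an accessory subunit of the Polycomb complex PRC2, and BCAR3 is an adaptor of adhesion signalling. Folds here and below are the authors' own per-peak values.
JARID2: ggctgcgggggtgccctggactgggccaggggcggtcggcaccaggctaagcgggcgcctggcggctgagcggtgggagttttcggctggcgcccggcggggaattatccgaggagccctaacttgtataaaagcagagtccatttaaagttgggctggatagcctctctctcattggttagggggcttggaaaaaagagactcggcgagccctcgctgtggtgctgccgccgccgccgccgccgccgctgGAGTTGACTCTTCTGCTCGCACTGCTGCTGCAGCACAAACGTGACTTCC
BCAR3: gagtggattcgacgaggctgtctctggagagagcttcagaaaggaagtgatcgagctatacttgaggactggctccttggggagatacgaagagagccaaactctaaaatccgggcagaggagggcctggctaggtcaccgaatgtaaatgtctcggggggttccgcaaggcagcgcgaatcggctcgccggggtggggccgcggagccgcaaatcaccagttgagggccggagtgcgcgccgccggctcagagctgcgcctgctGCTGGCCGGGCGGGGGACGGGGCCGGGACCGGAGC

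Both classes were rare at gene starts. Of 34961 windows, 105 held a lost, 37 a gained and 1054 a kept region, and of the 1049 control regions over any window 8.67% were lost. The motif GGACT, a common form of the m6A consensus, stood on the sense strand in 27.6% of windows with a lost region, 18.9% of those with a gained one and 29.5% of those with a kept one. On the other strand it stood in 20% of windows with a lost, 32.4% of those with a gained and 26.5% of those with a kept region, with only 37 windows behind the gained share. On either strand the shares were 42.9%, 45.9% and 48.6%. Over all windows they were 25.3% on the sense strand, 25.3% on the other and 44.1% on either. A match is a description of the letters and not a methylated site, and the 4 windows above had no GGACT under the capitals.

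ALCAM, a cell adhesion molecule, shows a kept start beside gained regions downstream. Its window (chr3:105366659-105366958, plus strand) lay under a peak in every list, of 10.8 and 6.57 fold in control and 10.8 and 11.9 fold in the SKOV3-labelled knockdown lists, and is printed to set against the pairs above. It has 1 GGACT under the capitals.
ALCAM: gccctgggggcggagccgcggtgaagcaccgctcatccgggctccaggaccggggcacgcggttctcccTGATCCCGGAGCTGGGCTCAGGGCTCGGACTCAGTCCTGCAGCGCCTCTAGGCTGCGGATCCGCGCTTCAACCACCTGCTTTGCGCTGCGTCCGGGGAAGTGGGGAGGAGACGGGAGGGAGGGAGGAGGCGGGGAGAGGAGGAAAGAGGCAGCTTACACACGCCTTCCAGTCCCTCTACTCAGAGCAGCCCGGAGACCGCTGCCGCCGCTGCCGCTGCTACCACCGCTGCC

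Few microRNA hairpins lay under any region. Of 1558 hairpins of the RefSeq table, 5 lay under a lost, 2 under a gained and 37 under a kept region. The hairpin of MIR6827, inside the Hippo pathway gene AMOTL2 on chromosome 3 from 134367804 to 134367862, was one of those under a gained region. Its mature arms are given with the seed, bases 2 to 8, in capitals.
hsa-miR-6827-5p: uGGGAGCCaugagggucugugc
hsa-miR-6827-3p: aCCGUCUCuucuguuccccag

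MIR100HG, the host transcript of let-7a-2, miR-100 and miR-125b-1 on chromosome 11 from 122028329 to 122422871, is described below among the genes with most lost regions. None of these hairpins lay under a region. The nearest peak to the miR-125b-1 hairpin was 1.54 and 1.54 kb away in the control lists and 1.54 and 1.49 kb away in the SKOV3-labelled knockdown lists. The nearest to the miR-100 hairpin was 32.9 and 32.8 kb away in control and 50.2 and 50.2 kb away in the SKOV3-labelled knockdown lists. The main mature arms, which have 3 different seeds, are these.
hsa-let-7a-5p: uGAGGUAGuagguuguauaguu
hsa-miR-100-5p: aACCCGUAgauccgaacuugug
hsa-miR-125b-5p: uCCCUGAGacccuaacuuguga

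The first comparison asked how many peaks each group had. The control lists held 28237 and 28774 peaks (mean 28505.5 ± 380, SD, n = 2) and the SKOV3-labelled knockdown lists 26178 and 26865 (26521.5 ± 486). Both knockdown lists lay below both control lists, by 6.96% in the mean or -0.10 on the log2 scale. With 2 lists a group, the two-sided exact permutation test gave p = 0.333, the smallest it can give, so no difference between these groups of lists can pass a threshold of 0.05. The peaks covered 12.3 and 12.6 Mb in control and 11.4 and 11.96 Mb in the SKOV3-labelled knockdown. The median fold enrichment of a peak was 4.99 and 4.90 in control and 4.44 and 4.33 in the SKOV3-labelled knockdown. Depth did not run the same way as peak number. The number of reads the caller took as background, a measure of MeRIP depth, was 11.8 and 12.4 in control and 12.6 and 13.6 in the knockdown lists, a ratio of 1.08, and the median summit held 74 and 76 against 80 and 84 reads.

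The 14.6% of lost regions has to be read beside the loss between replicates. Between the 2 control lists, 10.5% and 12.4% of the peaks of one were missing from the other, and between the SKOV3-labelled knockdown lists 11.4% and 14.95%. Between a single control list and a single SKOV3-labelled knockdown list, 23.1% to 25.6% of control peaks were missing, above every replicate value. In the other direction, 17.0% to 19.3% of the peaks of a knockdown list were missing from a control list, again above every replicate value.

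Lost and gained regions came mostly from weak peaks. OVCAR8 control regions were ranked by the authors' −log10 p and divided into 10 equal classes (deciles), and 31.0% of the weakest decile were lost and 2.43% of the strongest. Gained regions made up 26.4% of the weakest decile and 0.178% of the strongest decile of the regions of the libraries labelled SKOV3 knockdown, or 4 of 2243. The median lost region spanned 229 bp with 61.5 reads at its summit, and the median kept control region 390 bp with 85 reads. Few of these regions lay near the caller's limit, though more than of the kept ones. A −log10 q under 5 was found in 1.78% of lost and 0.422% of kept control regions. It was found in 3.89% of gained regions and 0.758% of the kept regions of the same lists.

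**Figure D1:**
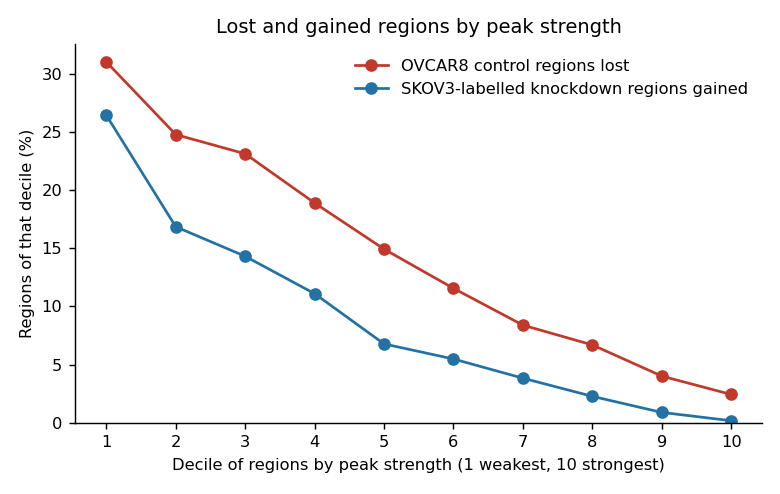
Percent of regions lost or gained (vertical axis) in each decile of regions by peak strength (horizontal axis, 1 weakest, 10 strongest), with OVCAR8 control regions as red points and regions of the libraries labelled SKOV3 knockdown as blue points. Loss goes from 31.0% to 2.43% and gain from 26.4% to 0.178% between the weakest and the strongest decile, with more loss than gain in each of the 10.

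In 18778 kept control regions with a peak in all 4 lists, the bases of the region under peaks were counted in each list. They were fewer in both SKOV3-labelled knockdown lists than in both control lists in 6811 regions (36.3%). They were more in both in 1177 (6.27%). The median change was small, between -0.017 and -0.036 on the log2 scale over the 4 pairs of lists, where the replicate pairs gave 0.0026 and 0. The median covered width of these regions was 382 and 387 bp in control and 340 and 349 bp in the SKOV3-labelled knockdown. Control peaks set the bounds of these regions, so bases of knockdown peaks outside them were not counted. That favours fewer bases in the knockdown lists. Over all peaks of a list, the median width did not run that way. It was 297 and 297 bp in control and 299 and 305 bp in the SKOV3-labelled knockdown.

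Presence in the other 8 peak lists, which the rule did not use, separated lost regions from gained ones. A peak of the first SKOV3 control list lay over 9.96% of lost regions, 58.5% of kept control regions and 57.7% of gained regions, and the second list gave 10.3%, 59.3% and 58.5%. Peaks in any LOVO or RKO list, from 2 colorectal cancer lines, covered 37.1% of lost, 77.6% of kept and 68.3% of gained regions. No peak in any of the other 8 lists lay over 59.4% of lost regions, 16.4% of kept control regions and 18.3% of gained regions. In the libraries labelled OVCAR8 knockdown, 20.99% and 21.1% of gained regions had a peak, against 45.8% and 46.6% of the kept regions of the same lists and 6.17% and 6.67% of lost regions.

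Since lost regions were weak, the same shares were taken within strength. Among the 5 stronger deciles of OVCAR8 control regions, 3.06% of the 816 lost and 67.6% of the 11517 kept regions had a peak in the first SKOV3 control list. Of the 60 lost regions in the strongest decile, 0 had one. Among the 5 stronger deciles of the regions of the libraries labelled SKOV3 knockdown, 78.9% of the 284 gained and 73.3% of the 10935 kept regions had one. In the 5 weaker deciles, the shares were 54.2% of the 1693 gained and 46.0% of the 9526 kept regions. These shares rest on regions of the same lists and are descriptions with no test.

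**Figure D2:**
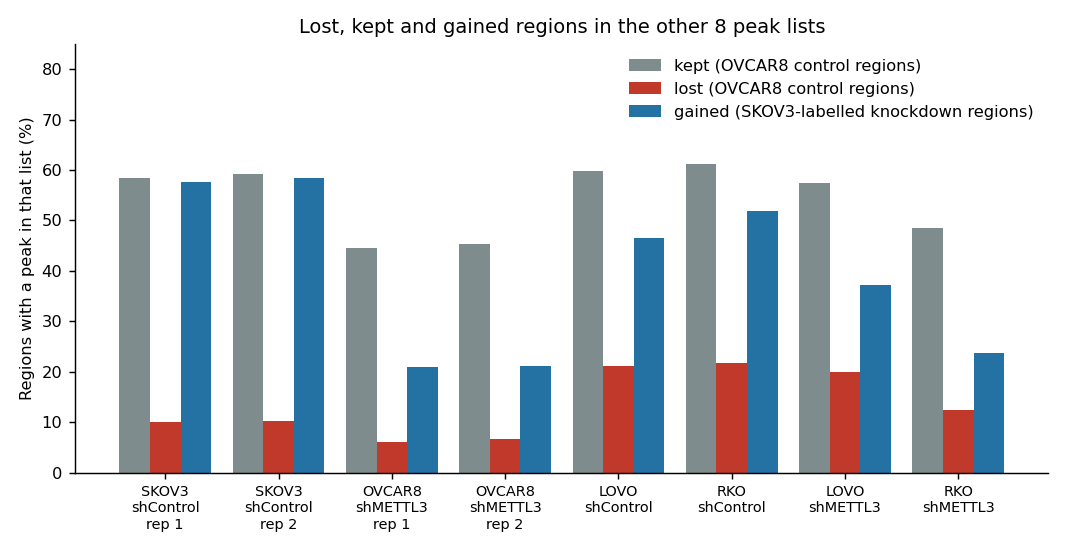
Percent of regions with a peak in each of the 8 lists not used to call regions (vertical axis), for kept control regions (grey bars), lost control regions (red bars) and gained regions (blue bars), with LOVO and RKO shown as 1 list per group. With strength not taken into account, gained regions are near kept control regions in the SKOV3 control lists (57.7% and 58.5% in replicate 1). Lost regions are the lowest bar in every list.

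The regions can also be divided by whether they belonged to both control groups. Of the 13360 OVCAR8 control regions that SKOV3 control also had, 406 (3.04%) were lost, and of the 11306 that SKOV3 control lacked, 28.2% were lost and 8116 (71.8%) were kept. Of the 12316 SKOV3 control regions absent from OVCAR8 control, 1690 (13.7%) had a peak in the libraries labelled SKOV3 knockdown. The dense loci of each control show the same at the level of genes. Of 17 genes with at least 20 peaks in each OVCAR8 control list and 0 in both SKOV3 control lists, all 17 had peaks in both SKOV3-labelled knockdown lists, at 0.118 to 0.84 times the OVCAR8 control number (median 0.468). Of 20 genes with at least 20 peaks in each SKOV3 control list and 0 in both OVCAR8 control lists, 18 had 0 in both SKOV3-labelled knockdown lists. The exceptions were DDAH1, with 22 and 22 peaks in SKOV3 control and 7 and 7 in the SKOV3-labelled knockdown, and AXL, a receptor tyrosine kinase, with 22 and 22 against 3 and 2. Both sets were chosen for high control numbers, so a lower number in another list is in part set by the choice.

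If the 4 lists were taken as 1 line, the values above would be those of a knockdown with 14.6% of regions lost and 8.81% gained. Of kept control regions with a peak in all 4 lists, 36.3% would have fewer bases under knockdown peaks and 6.27% more. Those 2 shares count only bases inside the control regions. Taken as labelled, they set a knockdown of one line against the control of another, and 36.5% of the regions of the libraries labelled SKOV3 knockdown had no peak in the control of their own labelled line.

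Position along the gene differed between lost and kept regions. Over sense regions of genes with a known strand, 5.13% of 2240 lost regions and 12.7% of 12943 kept ones lay within 2 kb of the 3′ end, and the last 10% of the gene body held 7.37% of lost and 17.7% of kept regions. The median lost region sat at 0.411 of the gene length from the 5′ end and the median kept one at 0.556. Gained regions, 1238 in all, lay within 2 kb of the 3′ end in 7.59% of cases and within 1 kb of the 5′ end in 4.28%, against 8.82% for the kept regions of the same lists. The first difference was also there within strength: among the 5 stronger deciles, 2.11% of control regions near the 3′ end and 7.31% of those elsewhere in the gene body were lost, and among the 5 weaker deciles 10.98% and 24.9%.

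**Figure D3:**
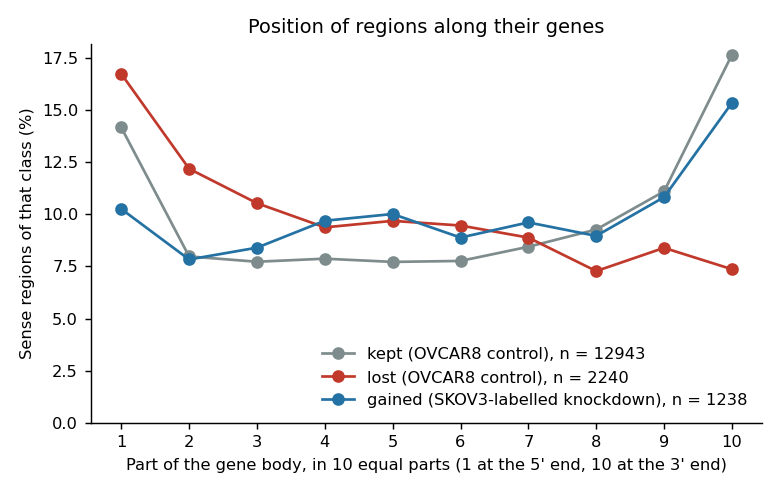
Share of sense regions of each class (vertical axis, percent) in each of 10 equal parts of the gene body from the 5′ end to the 3′ end (horizontal axis), for kept and lost OVCAR8 control regions and gained regions. Kept regions reach 17.7% in the last part and gained regions 15.3%, while lost regions are at 7.37% there and highest, at 16.7%, in the first.

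Loss also went with gene length and class. It was 8.69% in genes under 20 kb, 12.6% from 20 to 100 kb, 17.1% from 100 to 300 kb and 26.7% above 300 kb. Between genes it was 21.9%, in long non-coding RNA genes 18.9% and in protein-coding genes 13.8%. By chromosome it ran from 8.70% on chromosome 4 to 21.5% on X. Lost regions lay beside each other: the next region along the same gene was lost after 37.4% of lost and 12.9% of kept regions, and after a gained region it was gained in 24.6% of cases against 7.74% after a kept one. The share of all peaks by class differed little between the groups. Protein-coding genes held 86.4% ± 0.0565 of control peaks and 86.8% ± 0.101 of SKOV3-labelled knockdown peaks (SD, n = 2), and the space between genes 7.097% ± 0.0400 and 6.58% ± 0.0192. Neither set of lists overlapped the other, and the exact permutation p was 0.333 for each, 0.444 after Benjamini-Hochberg adjustment over 4 classes.

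Peak numbers per gene were compared next. Among 2376 genes with a mean of at least 3 peaks over the 4 lists, 567 (23.9%) had fewer peaks in both SKOV3-labelled knockdown lists than in either control list, and 323 (13.6%) had more in both. The split changed with the scaling: with each list's count as a share of its gene-assigned peaks, 550 were lower and 956 higher, and with the same number of peaks per list 439 and 431. The knockdown lists had fewer gene-assigned peaks, 21331 and 21896 against 22933 and 23396 in control. Under shares, a gene with the same count in all 4 lists is therefore called higher, and the 956 include such ties. Lost regions were spread over 1472 of 6559 genes with a control region, and 1004 of these genes lost exactly 1. Of 288 genes with at least 10 control regions, 62 lost none, 162 lost under 20%, 30 lost 50% or more, 2 lost 80% or more and 0 lost all. Over 7886 genes with a peak, which are not independent replicates, Spearman's rank correlation of peaks per gene was 0.91 and 0.89 between replicates and 0.80 to 0.81 between the groups.

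The 12 genes with most lost regions held 318 of the 2903 lost regions assigned to a gene, or 10.95%. Their peak numbers are those that helped choose them and are given as a description. OR51B5, an olfactory receptor gene whose annotated body spans chromosome 11 from 5340318 to 5505652 beside the beta-globin cluster, had 62 and 65 control peaks and 7 and 8 in the SKOV3-labelled knockdown lists. It lost 51 of its 57 control regions, and the 6 kept ones had a median of 359.5 summit reads against 88.5 for the lost. All 4 lists labelled SKOV3 control or OVCAR8 knockdown had 0 peaks there.

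Both cyclic nucleotide phosphodiesterase genes of the set kept many peaks. PDE4D, which degrades cAMP (chromosome 5, 58969038 to 60522128), had 56 and 54 control peaks and 21 and 19 in the SKOV3-labelled knockdown, with 31 of 50 regions lost. PDE10A (chromosome 6, 165327289 to 165988052) had 76 and 75 against 55 and 52, with 24 of 68 lost. In both, lost regions were weaker than kept ones in the median, at 65 against 107 summit reads in PDE4D and 62.75 against 124 in PDE10A.

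The other protein-coding genes of the set had no overlap between the groups either. GLIS3, a zinc finger transcription factor (chromosome 9, 3824127 to 4490465), had 54 and 55 control peaks against 23 and 28 in the SKOV3-labelled knockdown. SLCO3A1, an organic anion transporter (chromosome 15, 91853708 to 92172435), had 51 and 49 against 19 and 16. ASS1, argininosuccinate synthase of the urea cycle (chromosome 9, 130444707 to 130501274), had 41 and 39 against 12 and 14. In ASS1, the lost regions lay between 2.2 and 49.0 kb from the 5′ end of a 56.6 kb gene. MYO1E, a class I myosin, had 32 and 33 against 10 and 12, SND1, a nuclease-domain protein of RNA silencing complexes, 35 and 36 against 14 and 14, and BICC1, an RNA-binding protein, 34 and 35 against 17 and 17.

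Of the 3 long non-coding RNA genes of the set, MIR3667HG (chromosome 22, 49414524 to 49657519) had the most peaks, with 118 and 120 in control and 77 and 81 in the SKOV3-labelled knockdown. It lost 46 of 108 regions, kept 62, more than any other gene, and gained 3. MIR100HG had 29 and 32 against 6 and 5 and lost 19 of 25 regions. Its kept regions had a median of 243.5 summit reads and its lost ones 67.5. LOC105378314, on chromosome 10, had 26 and 28 against 9 and 10. Both control lists lay above both SKOV3-labelled knockdown lists in all 12 genes, by the rule that chose them.

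Gained regions were less concentrated. The 10 genes with most of them held 93 of 1644, or 5.66%. TRIO, a guanine nucleotide exchange factor (chromosome 5, 14143342 to 14510204), had 4 and 7 control peaks, 24 and 27 in the SKOV3-labelled knockdown and 46 and 50 in SKOV3 control. DST, which encodes the cytoskeletal linker dystonin (chromosome 6, 56457996 to 56954830), had 14 and 12, 33 and 30, and 39 and 42 in the same order. MIR4435-2HG, a long non-coding RNA, had 5 and 6, 21 and 17, and 28 and 33. ARHGAP39, a GTPase-activating protein, had 11 and 10, 22 and 27, and 42 and 39, and SPIDR, a scaffold of homologous recombination, 15 and 15, 27 and 27, and 37 and 41. In these 5 genes the libraries labelled SKOV3 knockdown lay between OVCAR8 control and SKOV3 control.

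AMOTL2 and ALCAM lay between as well, 1 or 2 peaks under SKOV3 control. AMOTL2 had 4 and 4 control peaks, 13 and 14 in the SKOV3-labelled knockdown and 15 and 15 in SKOV3 control, and ALCAM had 2 and 2, 9 and 9, and 10 and 10. CDH13 and DNHD1 had another order. CDH13, a cadherin without a transmembrane domain, had 11 and 8, 18 and 17, and 15 and 15. DNHD1, a dynein heavy chain domain gene, had 12 and 14 control peaks and 18 and 21 in the SKOV3-labelled knockdown, while SKOV3 control had 1 and 1. These numbers count both strands, and several of the gained and kept regions of DNHD1 lay on the strand opposite to the gene. In ALCAM, the 6 gained regions lay between 1.24 and 42.5 kb from the start of a gene of 210 kb.

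Genes with most kept regions beside MIR3667HG and PDE10A included PLEKHA6, an adherens junction protein, with 51 and 54 control peaks against 36 and 37 in the SKOV3-labelled knockdown and 14 of 48 regions lost. CTIF, a translation initiation factor of the nuclear cap-binding complex, had 51 and 48 against 32 and 34 and lost 9 of 42.

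**Figure D4:**
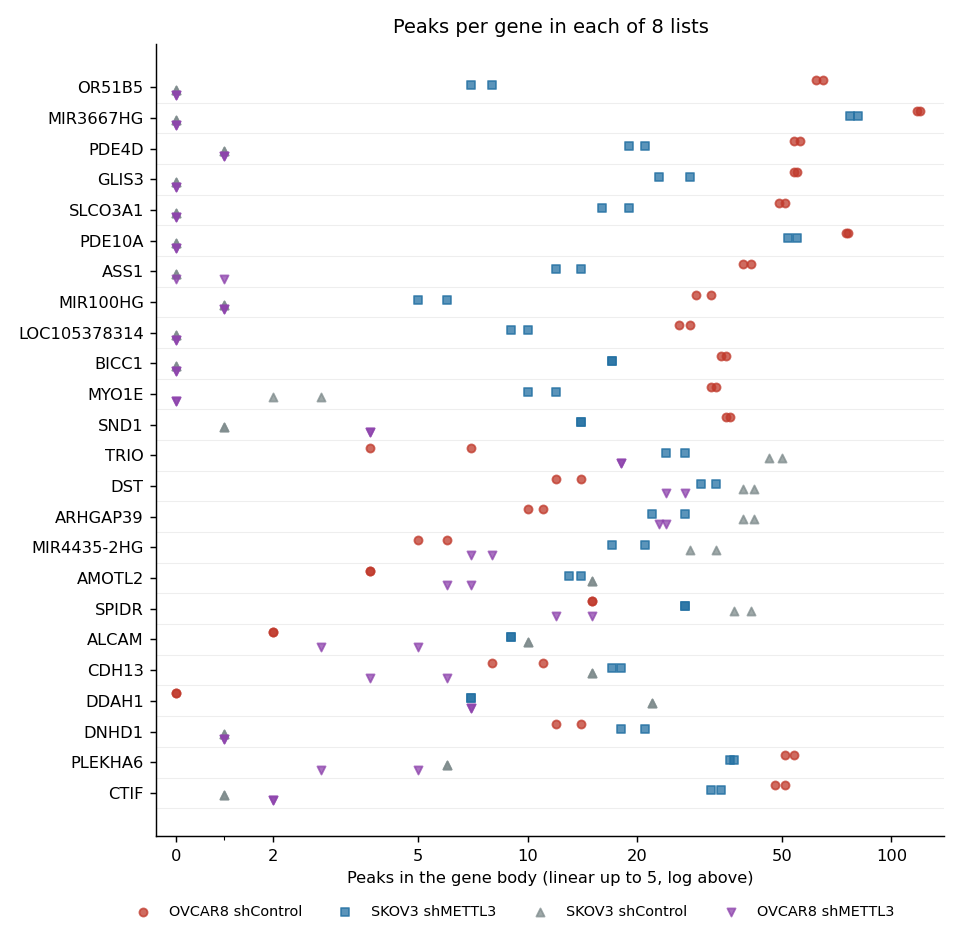
Number of peaks in the gene body (horizontal axis, linear up to 5 and logarithmic above) for the genes with most lost, most gained and most kept regions (vertical axis), with 1 point per list and 4 groups of 2 lists. In the 12 uppermost genes the SKOV3-labelled knockdown points (blue) lie below the OVCAR8 control points (red) and above the SKOV3 control points (grey), as for OR51B5 at 7 and 8 between 62 and 65 and 0 and 0.

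Few genes were emptied or filled. The 8 genes with most control peaks among those with none in both SKOV3-labelled knockdown lists had 3 to 5 control peaks per list. They were LINC00470 (5 and 5), DESI1, a deSUMOylating peptidase (5 and 4), POLR2J3-UPK3BL2 (5 and 4), LOC105373012 (3 and 4), the nuclear import receptor TNPO1 (3 and 4), and the coatomer subunit COPE, the signalling adaptor EPS8 and the kinesin KIF21A (3 and 3 each). In the other direction, DDAH1, which degrades asymmetric dimethylarginine, had 0 and 0 control peaks and 7 and 7 in the SKOV3-labelled knockdown. DNMT1, the maintenance DNA methyltransferase, had 0 and 0 against 4 and 2, and 7 and 6 in SKOV3 control. NSMCE2, a SUMO ligase, had 6 and 4 where control had none, GUSBP14 had 4 and 5, the corepressor NRIP1 4 and 3, citron kinase CIT 2 and 4 and LINC00707 4 and 2. All of these filled genes had peaks in SKOV3 control, and none of the emptied genes named did.

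The 4 genes with most control regions that lost 80% or more began with OR51B5. NBDY, whose product binds the decapping complex, had 15 and 18 against 1 and 2 peaks. CCAT1, a long non-coding RNA, had 10 and 9 against 1 and 1. The glycolytic enzyme gene GPI had 7 and 12 against 2 and 3.

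Gene lists are read against all 7886 genes with a peak, of which 1131 (14.3%) were lower and 883 (11.2%) higher in both SKOV3-labelled knockdown lists than in both control lists. These shares are the background of every list count that follows. Among the 2376 genes with a mean of at least 3 peaks, 23.9% were lower and 13.6% higher. Lists made up mostly of such genes, as 19 of the 23 chromatin genes with a peak, are to be read against those shares. Of 9 writer complex genes, 7 had a peak, 1 was lower and 2 were higher in both SKOV3-labelled knockdown lists, and the median difference over those with a peak was 0, as over all genes. VIRMA had 3 and 3 control peaks against 4 and 4, ZC3H13 5 and 4 against 7 and 8, and RBM15 3 and 3 against 2 and 2. METTL14 and WTAP had no peak in any of the 4 lists, HAKAI (CBLL1) had 1 and 2 against 1 and 1, and RBM15B 1 and 2 against 3 and 2. METTL16, a second methyltransferase placed in this list, had 2 and 3 against 3 and 2.

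Of 12 readers and erasers, all with a peak, 2 were higher and 1 lower. YTHDC1, the nuclear reader, had 3 and 3 against 5 and 4, and IGF2BP1, a cytoplasmic reader, 2 and 2 against 3 and 3. HNRNPA2B1, a nuclear RNA-binding protein linked to m6A, had 5 and 5 against 1 and 2, and lost 3 of 5 regions. The demethylase FTO had 2 and 2 in both groups.

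Genes that silence LINE-1 or degrade nuclear RNA varied by a peak or a few. Of 10 LINE-1 silencing genes, 9 had a peak, 4 were higher and 1 lower. TASOR2 had 5 and 6 against 7 and 8, MORC2 3 and 3 against 4 and 4, ATF7IP 2 and 2 against 3 and 3, and PPHLN1, a subunit of the HUSH complex, 3 and 4 against 2 and 2. Of 10 nuclear exosome genes, 7 had a peak, and only NRDE2, a partner of the exosome helicase, was set apart, with 5 and 5 against 6 and 6.

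DNA repair genes were examined because the study's title names repair. Of 26 homologous recombination and Fanconi anaemia genes, 20 had a peak, 2 were lower and 2 higher, and 6.67% of 45 control regions were lost against 14.5% over all genes. FANCC, a subunit of the Fanconi anaemia core complex, had 3 and 3 against 1 and 1. Among the higher genes, the FANCM helicase had 2 and 2 against 3 and 3. Of 20 break signalling and end joining genes, 13 had a peak, 0 were lower and 3 higher, with 9.52% of 42 control regions lost and 15.2% of 46 knockdown regions gained, against 8.996% gained over all genes. PRKDC, the DNA-dependent protein kinase, had 3 and 2 against 7 and 7, XRCC5 (Ku80) 0 and 0 against 2 and 1, and the polymerase POLQ 3 and 3 against 4 and 4.

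Of 25 chromatin genes, 23 had a peak, 5 were higher and 3 lower. NSD2, a histone H3 lysine methyltransferase, had 3 and 4 against 11 and 10, and 17 and 18 in SKOV3 control. The acetyltransferases KAT6A, with 5 and 4 against 9 and 9, and CREBBP, with 8 and 7 against 9 and 11, were higher, as were NSD1 (5 and 4 against 6 and 8) and KMT2C (7 and 7 against 8 and 9). The remodeller CHD2 had 9 and 9 against 6 and 5, KMT2A 13 and 12 against 11 and 10, and SMARCA2 2 and 2 against 0 and 1. Of 16 immediate-early genes and MYC relatives, 11 had a peak. FOSL1 (2 and 2 against 5 and 4) and FOSL2 (4 and 4 against 6 and 7) were higher and FOSB (2 and 2 against 1 and 1) was lower. MYC had 4 and 5 against 4 and 4.

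Of 12 Mullerian and ovarian markers, 3 had a peak, 2 of them were lower, and 7 of 21 control regions (33.3%) were lost, against 14.5% over all genes. That share rests on MECOM, which lost 6 of 13 control regions, while PAX8 lost 1 of 5 and MUC16 0 of 3. MECOM, a zinc finger factor amplified in ovarian cancer, had 14 and 14 control peaks and 7 and 7 in the SKOV3-labelled knockdown, and 0 and 0 in SKOV3 control. Of 10 epithelial markers, 4 had a peak, among them KRT7, with 11 and 11 against 10 and 8, and KRT18, with 2 and 2 against 4 and 3, while EPCAM and CDH1 had none. Of 11 mesenchymal markers, 2 had a peak, ZEB1 with 17 and 16 against 15 and 15. Of 11 intestinal markers 1, and of 10 blood and endothelial markers 3, had a peak, with summed peaks of 1 and 1 against 1 and 1 and of 5 and 4 against 4 and 4. Of 13 abundant nuclear RNAs, 7 had a peak. PVT1 (32 and 27 against 35 and 34) and SNHG14 (3 and 3 against 4 and 4) were higher and LINC-PINT (15 and 17 against 14 and 12) was lower. Of 14 interferon response genes in the table, 2 had a peak and none was set apart.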

How the data were processed

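Chromatin-associated RNA was enriched for m6A with an antibody kit after spike-in RNA was added, and stranded libraries were sequenced in pairs, per the labels' protocols. The submitters' processing notes name Trim Galore 0.6.6, Bowtie2 2.4.2, HISAT2 2.1.0, MACS2 2.2.7.1 and the build hg38, with no role or order. The authors deposited 1 peak list per ovarian MeRIP library, with each peak's fold enrichment (a linear ratio) and its p and q values on a −log10 scale. The LOVO and RKO lists, 1 a group, have a score for each peak, as deposited by the authors, and only their positions were used. No read totals are given in the sources used here. The caller's background and the reads at each summit were recovered from fold and p, and 100% of summits were whole numbers of reads to within 0.1 read. Spike-in values were not used.

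Peaks on chromosomes 1 to 22 and X were merged by strand into regions present in both lists of a group. Strength was the rank of −log10 p within a list, averaged over the 2 lists. A peak was counted for a gene where no other gene's body overlapped it, by the RefSeq table of GRCh38.p14 (39532 genes; strand known for 68.8% of them), and the 11.99% to 12.3% of peaks that lay in more than 1 gene were not counted. Peaks on either strand were counted for a gene. Where the strand was known, 95.7% of lost, 94.4% of kept control and 95.7% of gained regions lay on the strand of the gene. Gene classes used the peak midpoint. Exons, untranslated regions, repeats and the genome sequence were not used here. Peak numbers and class shares were compared by two-sided exact permutation over 6 arrangements. Replicate numbers did not pair the lists: over 7886 genes, the replicate differences of the 2 groups correlated at r = 0.041. Named genes were the 12 with most lost, 10 with most gained and 6 with most kept regions, the 8 emptied and the 8 filled, the 4 that lost 80% or more, and list members whose counts did not overlap or that had most peaks. Some genes that this rule names are not reported here. The members and the gene lists were chosen with earlier results of these data known. The overlap code was tested on simulated lists. Python 3.11.15, pandas 2.3.3 and scipy 1.17.1 were used.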

Additional observations from a re-analysis of the deposited data

How the results depend on the processing

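The share of OVCAR8 control regions lost was 14.6%. It was 17.9% when 50% of a region had to be covered, 23.9% when absence from 1 list sufficed, 22.5% with regions of any list, 19.9% at a fold of at least 3, 13.3% with 26178 peaks per list, and 18.5% to 19.9% with any 1 list left out. The share gained, 8.81%, was 11.98%, 15.9% and 17.4% under the first 3 settings, 11.3% with equal peak numbers, and 11.98% to 14.3% with any 1 list left out. At a −log10 q of at least 5, or without strand, both shares moved by less than the replicate SD. The share of lost regions with a SKOV3 shControl peak, 11.3%, was 14.5%, 17.7% and 15.1% under the first 3 settings, 11.7% (−log10 q), 13.0% (fold), 9.67% (equal numbers), 11.4% (no strand) and 13.8% to 16.2% (lists left out). That of gained regions, 61.9%, was 62.4% with 50% covered, 56.4% with absence from 1 list, 46.4% with any list, 63.5% (−log10 q), 66.4% (fold), 60.3% (equal numbers) and 50% to 59.2% (lists left out). The settings for these last shares were chosen after seeing the data. The share lost was above the share gained in each of these settings.

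Genes lower and higher numbered 369 and 156 at a minimum mean of 5 peaks, 439 and 431 with equal peak numbers, and 550 and 956 with shares of gene-assigned peaks. The split by direction thus depends on the scaling. Under shares more genes were higher than lower, but genes with equal counts in all lists are called higher there. That number is therefore in part set by the smaller totals of the knockdown lists. The log2 difference in peak number was -0.12 to -0.09 with any 1 list left out and -0.24 at a fold of at least 3. With the replicate block it was -0.10, with an exact permutation p of 0.5, the smallest that 2 pairs allow. Class shares kept their direction under the block, any overlap and equal numbers. With 1 list left out, the long non-coding RNA difference ran from -0.105 to 0.0107 percentage points. None of the genes with most lost, gained or kept regions, emptied or filled that are reported here changed sign with equal peak numbers or with any gene body overlapped. Leaving out OVCAR8 or SKOV3 lists leaves 1 list in an arm, which is a value with no test. The 2 lists per group and unknown read totals limit all of these values.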
